A study of Mus musculus with 3 samples.

Results

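The interleukin-6 (IL-6) family was read in 3 sorted populations of mouse endosteal cells, the cells released from the inner face of bone. The genes were 5 ligands (Il6, Lif, Il11, Clcf1 and Ctf1), 4 receptor subunits (Il6st, Lifr, Osmr and Il6ra) and Socs3, the feedback inhibitor of the pathway. They were chosen by gene symbol in the platform annotation, which gave 23 probe sets of 45101, and 10 genes of the 18193 that had a probe set with a single symbol. All cells came from C57BL/6 mice, as femur and tibia fragments digested with collagenase, and were depleted of CD45+, CD31+ and Ter119+ cells, which removes blood, endothelial and erythroid cells. The rest was sorted by the PDGF receptor α and by Sca-1, a surface protein of mesenchymal progenitors, into the PDGFRα−Sca-1− population (double-negative below), the PDGFRα+Sca-1− population (single-positive) and the PDGFRα+Sca-1+ population (double-positive). Total RNA was amplified with a two-cycle labelling assay and hybridised to 1 Affymetrix array per population. No genetic change or treatment is named in the labels. The labels state neither the age of the mice nor whether animals were pooled. The study asked how these sorted fractions differ. With 1 array each there were no replicates, so every difference is between single arrays and carries no p-value or replicate error.

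IL-6 family ligands act through receptor complexes built around gp130, the product of Il6st. IL-6 and IL-11 first bind their own α receptors and then a gp130 pair, whereas LIF, cardiotrophin-1 (Ctf1) and cardiotrophin-like cytokine (Clcf1) use gp130 together with the LIF receptor, and mouse oncostatin M uses gp130 with the oncostatin M receptor. The complexes activate JAK kinases and the transcription factor STAT3, which induces Socs3, whose product binds gp130 and shuts the receptor down. In bone these cytokines act on osteoblasts and, through them, on the formation of osteoclasts.

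The promoters of Il6, Lif and Il11 are shown because these ligands had the largest differences between the populations, and that of Socs3 because it is the pathway's own feedback target. RefSeq promoters of build GRCm38.p6 were found for 9 of the 10 genes; Clcf1 had no entry in the table used. Each sequence is the 250 bases before the annotated start, 5′ to 3′ on the gene's strand. They lie at chr5:30012864-30013113 (plus strand) for Il6, chr11:4257318-4257567 (plus strand) for Lif, chr7:4778142-4778391 (minus strand) for Il11 and chr11:117969367-117969616 (minus strand) for Socs3. Capitals mark matches on either strand to the letters TGANTCA (AP-1), ACGTCA (the core of a cAMP response element), TTNNGNAA (C/EBP), TTCNNNGAA (STAT) or the NF-κB consensus.
Il6: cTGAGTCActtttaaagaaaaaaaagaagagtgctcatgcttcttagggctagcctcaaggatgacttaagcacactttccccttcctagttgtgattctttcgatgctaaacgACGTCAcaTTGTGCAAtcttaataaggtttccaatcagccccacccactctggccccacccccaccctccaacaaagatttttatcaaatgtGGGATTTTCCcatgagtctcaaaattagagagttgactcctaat
Lif: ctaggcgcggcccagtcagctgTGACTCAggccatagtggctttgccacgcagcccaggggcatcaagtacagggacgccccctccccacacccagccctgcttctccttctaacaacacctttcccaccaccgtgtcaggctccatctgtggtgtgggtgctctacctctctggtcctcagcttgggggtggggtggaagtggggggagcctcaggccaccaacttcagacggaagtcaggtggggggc
Il11: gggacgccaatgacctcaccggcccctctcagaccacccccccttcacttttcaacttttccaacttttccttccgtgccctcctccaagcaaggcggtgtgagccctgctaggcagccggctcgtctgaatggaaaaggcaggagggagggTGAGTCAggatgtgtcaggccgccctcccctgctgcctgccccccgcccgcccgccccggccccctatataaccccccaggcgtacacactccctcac
Socs3: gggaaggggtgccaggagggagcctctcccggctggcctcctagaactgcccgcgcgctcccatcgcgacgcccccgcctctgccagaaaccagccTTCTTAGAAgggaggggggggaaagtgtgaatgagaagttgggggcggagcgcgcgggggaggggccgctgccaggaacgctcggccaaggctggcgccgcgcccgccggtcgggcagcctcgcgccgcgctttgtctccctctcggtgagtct

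The AP-1 letters stood in the promoters of all 3 of these ligands, as TGAGTCA at positions −249 to −243 of Il6, TGACTCA at −228 to −222 of Lif and TGAGTCA at −98 to −92 of Il11, counted back from the start. Of 32851 promoters in the table, 6.75% held a match. Il6 alone of the 4 also held the core of a cAMP response element (−136 to −131), the C/EBP letters TTGTGCAA (−128 to −121) and the NF-κB match GGGATTTTCC (−44 to −35), in that order. Of the 32851 promoters 6.47% held the first, 36.8% the second and 1643 the third. No 2 of these matches overlapped. In Socs3 the only match was to the STAT letters, TTCTTAGAA at −154 to −146, found in 7.02% of promoters. The second Il11 start in the table held no match, nor did the promoters of Ctf1, Il6st, Lifr and Osmr, and Il6ra held 2 C/EBP matches. These are descriptions of letters and not measured binding.

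Signals are linear intensities of probe sets, brought to the same trimmed mean on each array. A floor of 93.2, the mean of the array medians, stood in for detection calls. A gene was called higher or lower where its ratio was 2-fold or more, and its value is that of its brightest probe set, with the others given beside it. By that probe set all 10 genes lay above the floor on all 3 arrays. Of the 23 probe sets, 21 lay above the floor on at least 1 array and 19 on all 3. The intensity of different probe sets is not comparable, so levels are compared only between populations. In sorted bulk RNA, fewer cells of a type and less RNA per cell cannot be told apart.

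**Figure D1:**
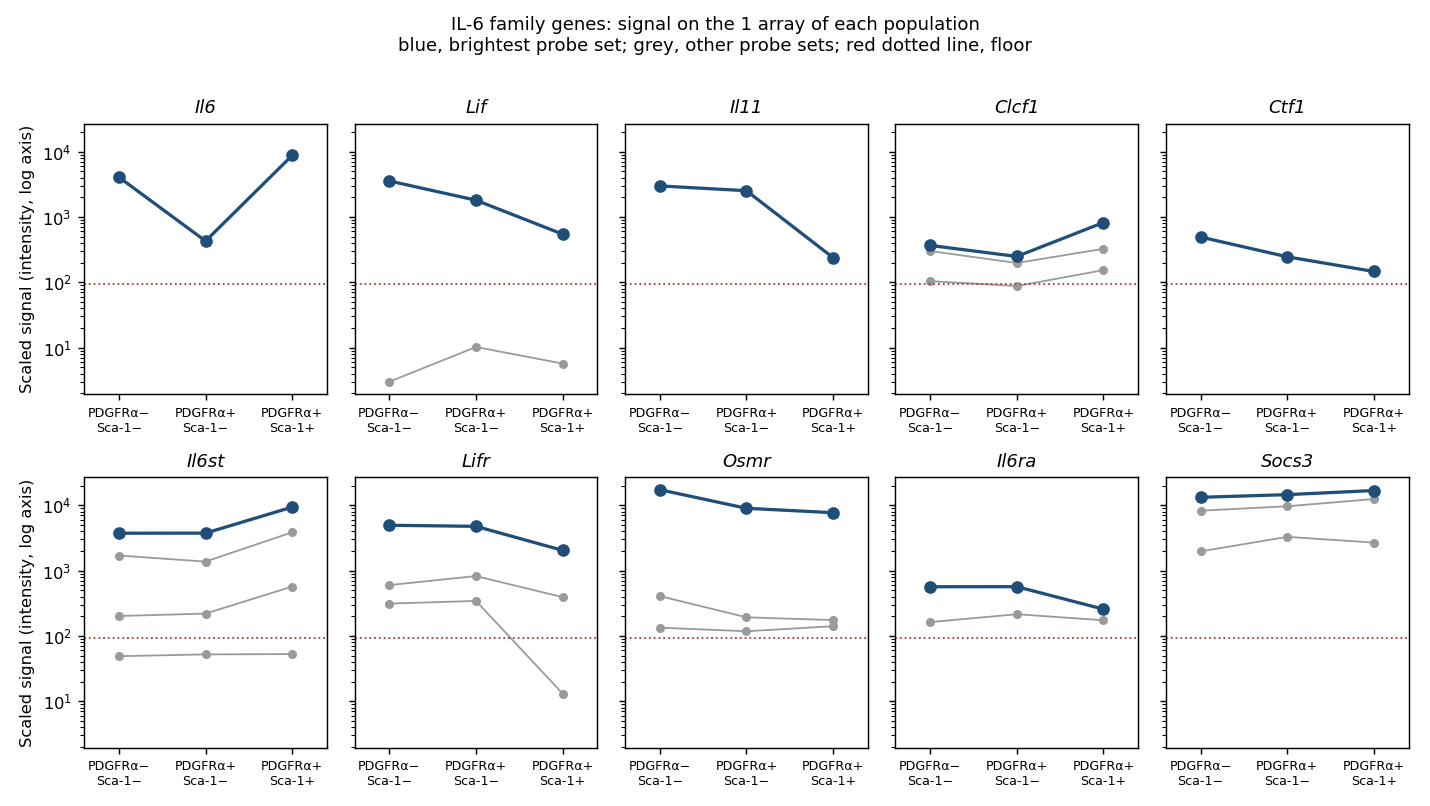
Scaled signal (log axis) of every probe set of the 10 IL-6 family genes on the array of each population, 1 point per array and no error bars because there were no replicates; blue is the brightest probe set of a gene, grey the others, and the red dotted line the floor of 93.2. Il6 is lowest in single-positive cells at 427, whereas Lif and Il11 are lowest in double-positive cells at 544 and 238.

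Il6 had the widest range of the 10 genes. It encodes IL-6, a cytokine of inflammation and of the acute phase response. Its only probe set gave 4055 in double-negative cells, 427 in single-positive cells and 8740 in double-positive cells. The order was therefore not that of either sorting marker alone. The signal was 9.49-fold lower in single-positive than in double-negative cells (log2 ratio −3.25), and 20.5-fold higher in double-positive than in single-positive cells (4.35). Between the outer populations it was 2.16-fold higher in double-positive cells (1.11).

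Lif and Il11 were highest in double-negative cells and lowest in double-positive cells, the population with the most Il6. Lif encodes leukaemia inhibitory factor, named for its action on myeloid leukaemia cells. The Lif signal was 3548 in double-negative, 1802 in single-positive and 544 in double-positive cells. It was 3.31-fold lower in double-positive than in single-positive cells and 6.52-fold lower than in double-negative cells. The step between the Sca-1− populations, 1.97-fold, fell just short of the threshold. A second Lif probe set stayed at or under 10.2 on all 3 arrays and gave no ratio.

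Il11 encodes interleukin-11, which is known to promote osteoclast formation. Its probe set gave 2981 in double-negative cells, 2519 in single-positive cells and 238 in double-positive cells. The Sca-1− populations differed by 1.18-fold, so these neighbours in the order were not separated. Double-positive cells were 10.6-fold lower than single-positive cells and 12.5-fold lower than double-negative cells.

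Ctf1 and Clcf1, ligands of the LIF receptor complex, had opposite directions in double-positive cells, while both gave less signal in single-positive than in double-negative cells (log2 ratios −1.01 and −0.56). Ctf1, which encodes cardiotrophin-1, followed the order of Lif and Il11, with 492, 245 and 146 in double-negative, single-positive and double-positive cells. It was 3.37-fold lower in double-positive than in double-negative cells. Its step between the Sca-1− populations, 2.01-fold, lay just past the threshold, and that between the PDGFRα+ populations was 1.68-fold. Clcf1 followed the order of Il6, with 366, 248 and 820. By this probe set it was 3.31-fold higher in double-positive than in single-positive cells and 2.24-fold higher than in double-negative cells. All 3 Clcf1 probe sets gave the same directions, but the others were within 2-fold, at 1.65-fold and at least 1.64-fold against single-positive cells and 1.08-fold and 1.47-fold against double-negative cells.

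The shared receptor subunit and its partners also differed in direction. Il6st, which encodes gp130, gave 3739 and 3752 in the double-negative and single-positive cells and 9390 in double-positive cells. The Sca-1− populations differed little (log2 ratio 0.01), and double-positive cells were 2.50-fold higher than single-positive cells. Of its 4 probe sets, 3 were measured on all arrays and all 3 were past 2-fold, with log2 ratios of 1.32 to 1.49 against single-positive cells and 1.18 to 1.49 against double-negative cells. The fourth was under the floor throughout.

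Lifr, the LIF receptor gene, had the reverse order. It gave 4946 in double-negative, 4765 in single-positive and 2042 in double-positive cells, a 2.33-fold lower signal in double-positive than in single-positive cells. All 3 Lifr probe sets were past 2-fold in that comparison, at log2 ratios of −1.88 to −1.07, the first of which is a bound because its signal of 13.1 in double-positive cells lay under the floor. Against double-negative cells the brightest was 2.42-fold lower and 1 of the others, at 1.53-fold lower, was within 2-fold.

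Osmr, the oncostatin M receptor gene, was the one receptor subunit that differed more between the Sca-1− populations than between the PDGFRα+ populations. It gave 17339 in double-negative cells against 9007 in single-positive and 7705 in double-positive cells. The brightest probe set was 1.93-fold and the next 2.12-fold lower in single-positive than in double-negative cells, on either side of the threshold. Both were lower in double-positive than in double-negative cells, 2.25-fold and 2.33-fold, while the third, near the floor at 118 to 141, differed by 1.05-fold. The PDGFRα+ populations were within 2-fold by all 3, at log2 ratios of −0.23 to 0.26.

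Il6ra, which encodes the α receptor that binds IL-6, gave 567, 568 and 257 in double-negative, single-positive and double-positive cells. It was thus 2.21-fold lower in double-positive than in single-positive cells, the opposite of Il6 and Il6st. The other Il6ra probe set gave 163, 215 and 174, within 2-fold in every comparison, so that call rests on 1 probe set of 2.

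Socs3 was the only one of the 10 within 2-fold in all 3 comparisons, by each of its 3 probe sets. Its brightest probe set gave 13264 in double-negative, 14560 in single-positive and 16842 in double-positive cells, a spread of 1.27-fold from lowest to highest. The next gave 8272, 9659 and 12483, and the third 1970, 3287 and 2687. Ratios of double-positive over double-negative cells were 1.27-fold, 1.51-fold and 1.36-fold. The brighter pair carries the suffix _x_at, which marks probes that may match other transcripts.

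**Figure D2:**
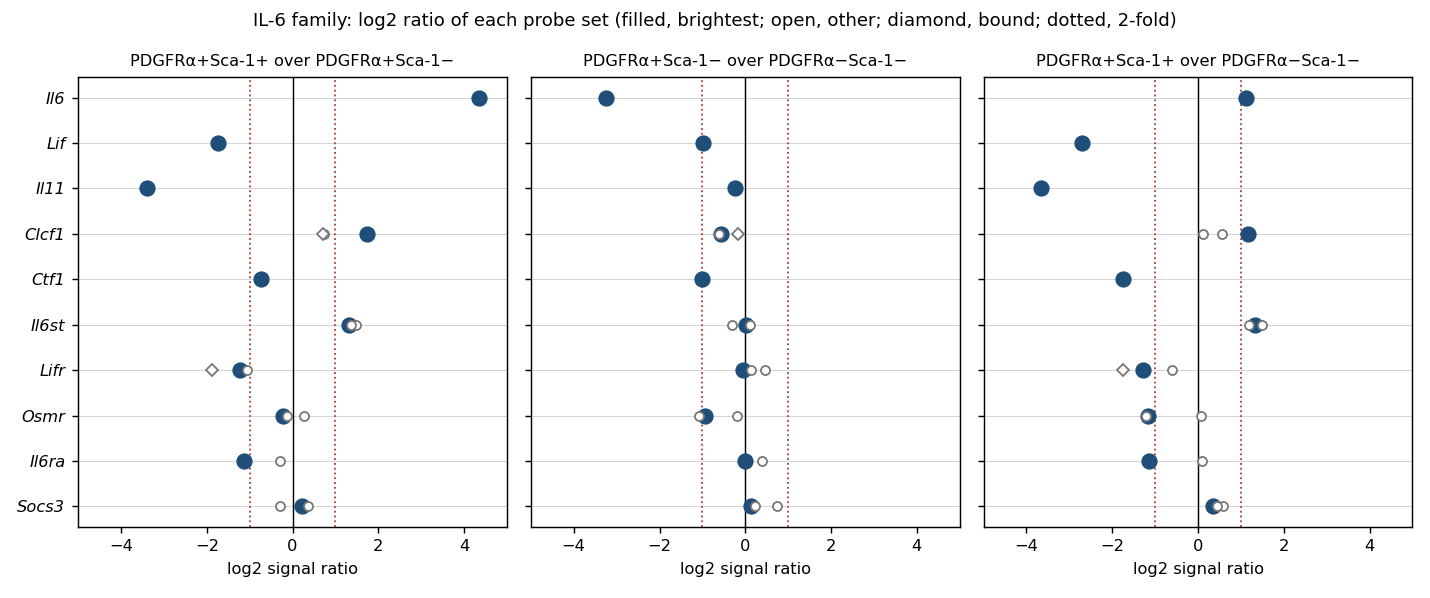
Log2 signal ratio of each probe set (filled, the brightest of a gene; open, the others; diamond, a bound with 1 array under the floor) for the 10 IL-6 family genes in the 3 comparisons, with dotted lines at 2-fold. In double-positive over single-positive cells Il6 stands at 4.35 and Il11 at −3.40, and the 3 measured Il6st probe sets all lie past 2-fold.

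Among the 10 genes, 3 were higher in double-positive than in single-positive cells (Il6, Clcf1 and Il6st), 4 were lower (Lif, Il11, Lifr and Il6ra) and 3 were within 2-fold. Over all 11855 genes compared, 14.9% were higher and 11.3% lower, 26.2% in all. The median log2 ratio was −0.48 over the family and 0.07 over all genes. The SD between probe sets of the same gene was 0.65 on this scale. The log2 ratios of Il6st, Lifr and Il6ra, at 1.32, −1.22 and −1.14, passed the threshold by less than that scatter. Those of Il6, Il11, Lif and Clcf1, at 4.35, −3.40, −1.73 and 1.73, passed it by more. Yet the other Clcf1 probe sets, at 0.73 and at least 0.72, did not pass the threshold, nor did the second of Il6ra, at −0.30. All measured Il6st and Lifr probe sets passed it. Il6, Il11 and Lif each had 1 probe set that could be compared. This SD gives no replicate error.

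Between the Sca-1− populations 0 of the 10 were higher in single-positive cells, 2 were lower (Il6 and Ctf1) and 8 were within 2-fold. Over all 11675 genes compared, 4.82% were higher and 5.63% lower, 10.4% in all. The family median was −0.40 against −0.03 over all genes, and the SD between probe sets was 0.40. Ctf1, Lif and Osmr lay next to the threshold at log2 ratios of −1.01, −0.98 and −0.94, so the count of 2 depends on where the line is drawn.

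Between the outer populations the same 3 genes were higher in double-positive cells, 6 were lower (Lif, Il11, Ctf1, Lifr, Osmr and Il6ra) and 1 was within 2-fold. Over all 11843 genes compared, 14.5% were higher and 12.2% lower, 26.6% in all. The family median was −1.16 against 0.03 over all genes, with an SD between probe sets of 0.58. This comparison shares an array with each of the others and its log2 ratios are their sums, so it adds no separate evidence.

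**Figure D3:**
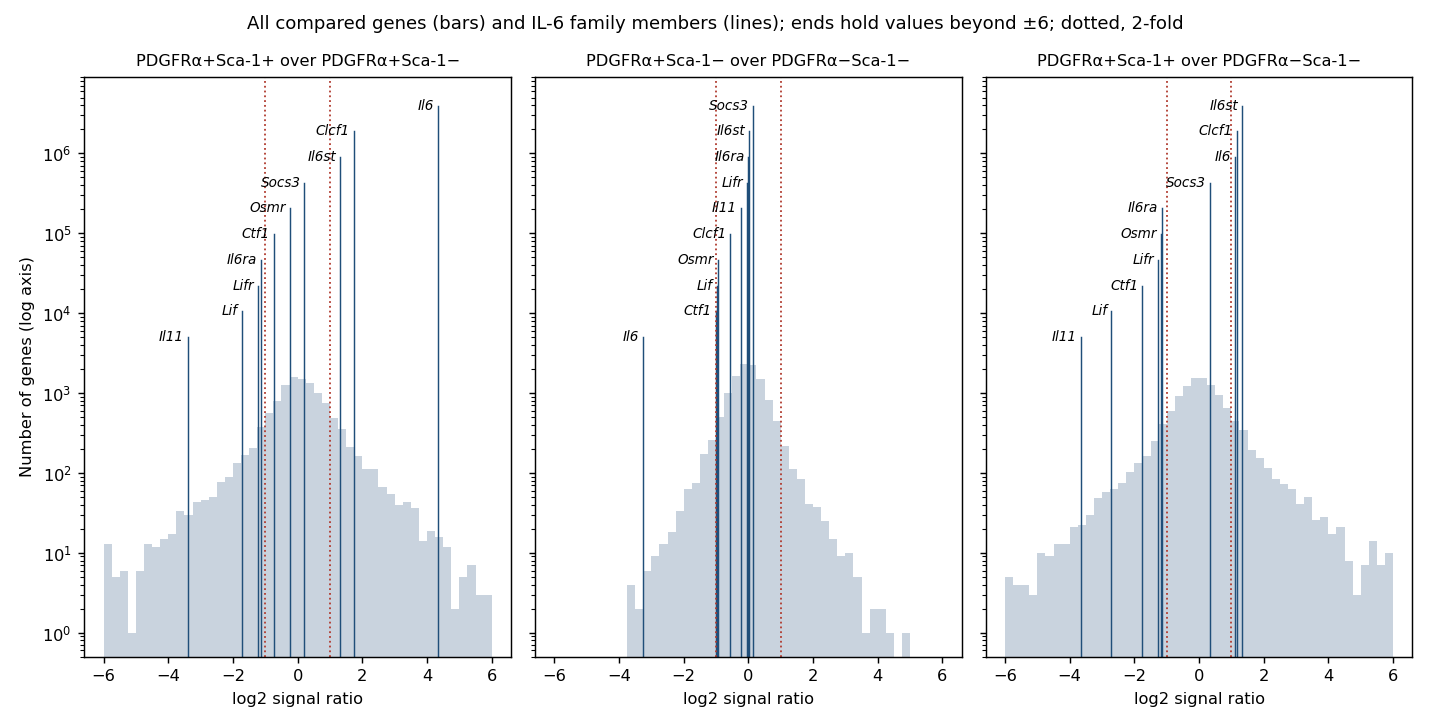
Number of genes (log axis) by log2 signal ratio for all genes compared (bars, 0.25 wide), with the 10 IL-6 family genes as vertical lines whose height only keeps the names apart, and dotted lines at 2-fold. In single-positive over double-negative cells Il6 at −3.25 stands far out in the lower tail, and the other 9 lie between −1.01 and 0.13.

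For each gene with a 2-fold range, the genes with the most similar pattern were found by the Euclidean distance between centred log2 signals over the 3 arrays, among 9491 genes above the floor on all arrays. The nearest to Il6 was Serpina3n, a serine protease inhibitor gene, at 1312, 170 and 4405 and a distance of 0.45. It was followed by Plxdc1 (0.75) and Lbp, which encodes lipopolysaccharide-binding protein (1.01). A second Plxdc1 probe set lay under the floor in both Sca-1− populations. Its log2 ratio for double-positive over single-positive cells was therefore a bound, at least 0.04, against 3.52. For the other 8 genes the nearest lay at 0.01 to 0.06, so none of them stood as far from its nearest gene as Il6 did. The distance was not scaled to the range of a gene, which was widest for Il6, so it does not show an unusual pattern by itself. Lif lay closest to F3, the tissue factor gene, which gave 11862, 6153 and 1794 (0.04). Il11 lay closest to the transporter gene Flvcr2, at 1556, 1363 and 121 (0.06), and to the collagen gene Col27a1, at 14037, 11776 and 1053 (0.07). Each likeness rests on 3 arrays and on the brightest probe set of a gene.

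Other ligands and receptors of the family were mostly dim. Of 11 such genes 6 had a single-symbol probe set and 2 of these lay above the floor on any array. Cntfr, the α receptor for CNTF and CLCF1, gave 239 in double-negative, 110 in single-positive and 112 in double-positive cells, 2.18-fold lower in single-positive than in double-negative cells. Osm, the ligand of Osmr, was above the floor only in single-positive cells, at 121.

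The kinases, transcription factors and adaptors downstream were called about as often as genes in general, of which 26.2%, 10.4% and 26.6% were called in the 3 comparisons. Of 14 genes of the JAK, STAT and adaptor list, 1 was higher and 2 lower in double-positive than in single-positive cells, 0 were higher and 2 lower in single-positive than in double-negative cells, and 1 was higher and 2 lower in double-positive than in double-negative cells. Jak1, the kinase that gp130 signalling depends on most, gave 2997, 4105 and 3756 in double-negative, single-positive and double-positive cells. Stat3, singled out after its values were seen because it is the central factor of the pathway, gave 3798, 2575 and 2102 by its brightest probe set. Its 4 probe sets disagreed, with log2 ratios of −0.74 to 1.27 for double-positive over single-positive cells, so no direction is given for it. Ptpn11, the phosphatase that links gp130 to the MAP kinase pathway, was within 2-fold throughout by its brightest probe set, at 4358, 4151 and 4774, while its other probe set gave a log2 ratio of −1.03 between the PDGFRα+ populations.

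Gab1, the docking adaptor of that branch, had the largest ratio in this list, with 4892, 6616 and 1377, a 4.81-fold lower signal in double-positive than in single-positive cells, and all 3 of its probe sets were past 2-fold there. Stat6, which acts downstream of IL-4, was 2.57-fold higher in double-positive than in double-negative cells. Stat5a was 2.41-fold lower in single-positive than in double-negative cells. The other probe set of Stat6 kept its direction but was within 2-fold, at a log2 ratio of 0.77. The other of Stat5a was also lower, at a log2 ratio of −0.37. That ratio is a bound, because the probe set lay under the floor in single-positive cells. Stat5b was 2.36-fold higher in double-positive than in single-positive cells by its brightest probe set, but the other gave a log2 ratio of −1.04.

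Inhibitors other than Socs3 were lower or within 2-fold in double-positive cells. Of 14, 0 were higher and 3 lower than in single-positive cells, and 0 were higher and 4 lower than in double-negative cells. Between the Sca-1− populations 0 were higher and 1 lower in single-positive cells. Over all genes compared, the shares higher and lower were 14.9% and 11.3%, 14.5% and 12.2%, and 4.82% and 5.63%, in the same order. Socs2, an inhibitor of growth hormone signalling, gave 3671, 3447 and 1272 and was 2.71-fold lower in double-positive than in single-positive cells. The phosphatase gene Ptpn2 was 2.14-fold lower and Socs7 2.41-fold lower in the same comparison. All probe sets of these 3 genes were lower there, but the least different gave log2 ratios of −0.77, −0.97 and −0.73 for Socs2, Ptpn2 and Socs7. Socs1, a close relative of Socs3, gave 255, 127 and 119, and was 2.01-fold lower in single-positive than in double-negative cells. Ptpn1 lay on the line between the PDGFRα+ populations, 2.00-fold lower by rounding and called within 2-fold, while its other probe set gave a log2 ratio of −0.07. Socs5 was within 2-fold by its brightest probe set, with 2039, 2347 and 2648, but its other probe set gave a log2 ratio of −1.18 for double-positive over single-positive cells.

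Genes known as STAT3 targets went both ways. Of 23 compared between the PDGFRα+ populations, 4 were higher in double-positive cells, 6 were lower and 13 differed by less than 2-fold. Their median log2 ratio was 0.01. Between the Sca-1− populations 2 of 22 were higher in single-positive cells and 6 lower, and between the outer populations 4 of 23 were higher in double-positive cells and 6 lower. Of all genes compared, 14.9% were higher and 11.3% lower, then 4.82% and 5.63%, then 14.5% and 12.2%, in the same order. Lbp had the order of Il6, at 4060, 1138 and 12313, and was 10.8-fold higher in double-positive than in single-positive cells. The acute phase gene Saa3 was under the floor in both Sca-1− populations and gave 688 in double-positive cells, at least 7.39-fold higher than in either.

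Against these, A2m, the α2-macroglobulin gene, gave 3124, 492 and 125, with a log2 ratio of −4.64 for double-positive over double-negative cells. Fgg, the fibrinogen γ chain gene, gave 1547, 134 and 4.99, at least 16.6-fold lower in double-positive than in double-negative cells. Acute phase genes of this list thus differed in direction from each other. Mcl1 and Ier3, which act in cell survival, were within 2-fold by their brightest probe sets, at 17334 to 19170 and 15138 to 17242. The 6 Mcl1 probe sets, however, gave log2 ratios of −1.14 to 0.43 for double-positive over single-positive cells.

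Of 4 genes for the release of membrane-bound receptors such as the IL-6 receptor, 2 encode proteases and 2 iRhoms. By their brightest probe sets 3 were highest in double-positive cells. Against double-negative cells these 3 were called higher and 1 lower, where 14.5% and 12.2% of all genes compared were. Adam10 gave 933, 2096 and 3528 in double-negative, single-positive and double-positive cells, a 3.78-fold difference between the outer populations. Adam17 gave 1304, 2033 and 2837 (2.18-fold). Its 3 probe sets disagreed in direction, with log2 ratios of −0.45 to 1.12 over double-negative cells and −1.14 to 0.48 over single-positive cells. Rhbdf1, an iRhom that carries ADAM17 to the cell surface, was 2.46-fold higher and its relative Rhbdf2 at least 4.73-fold lower in double-positive than in double-negative cells.

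**Figure D4:**
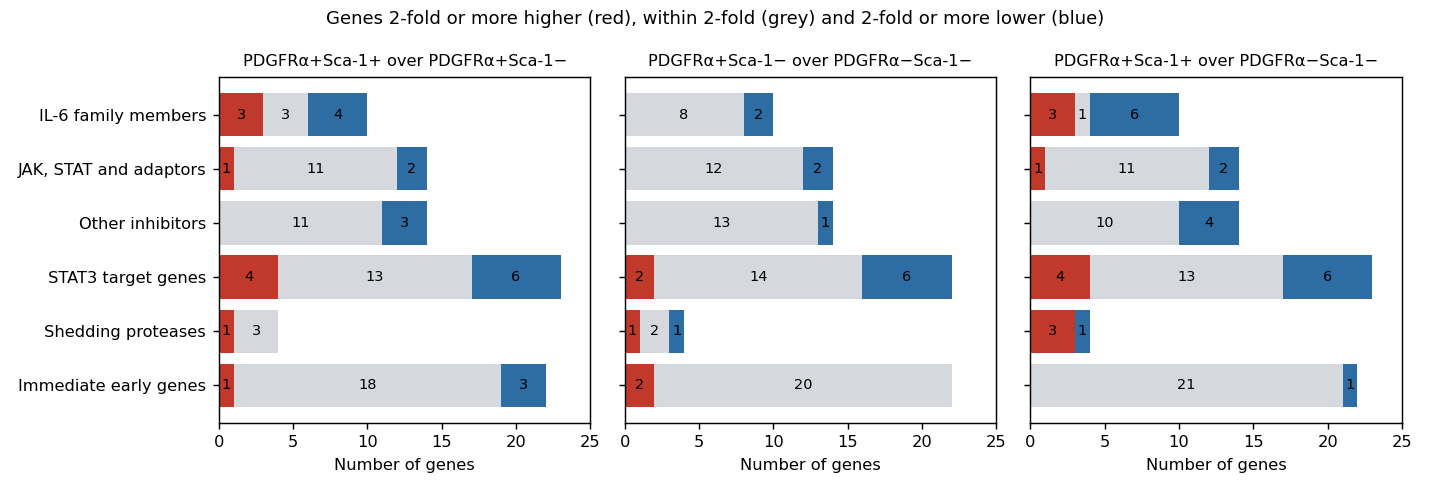
Number of genes (x axis) in each list that were 2-fold or more higher (red), within 2-fold (grey) or 2-fold or more lower (blue) in the first-named population of each comparison; a bar's length is the number of genes that could be compared. In double-positive over double-negative cells 9 of the 10 IL-6 family genes and 3 of 14 JAK, STAT and adaptor genes lie outside 2-fold, where 26.6% of all genes compared do.

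Immediate early genes, a class of fast-responding transcription factors and stress genes, were bright on all 3 arrays. Egr1 gave 29329, 31864 and 28738 in double-negative, single-positive and double-positive cells, and the heat shock gene Hspa1b, nearly identical to Hspa1a and so uncertain, 30745, 27085 and 27217. Of 22 such genes, 1 was higher and 3 lower in double-positive than in single-positive cells, 2 were higher and 0 lower in single-positive than in double-negative cells, and 0 were higher and 1 lower in double-positive than in double-negative cells. The shares over all genes were 14.9% and 11.3%, 4.82% and 5.63%, and 14.5% and 12.2%. The median log2 ratio of the immediate early genes was −0.24 for double-positive over single-positive cells and 0.26 for single-positive over double-negative cells. Their part in the differences of the IL-6 family was not tested. The members that differed were Egr2 at 4567, 15556 and 4576, Egr3 at 4665, 9536 and 2425, Btg2 at 11363, 15915 and 4232, and Nfkbiz, an NF-κB regulator, at 10089, 9504 and 19088. Egr2 was thus highest where Il6 was lowest, by both its probe sets, whereas the second Egr3 probe set gave a log2 ratio of only −0.20 between the PDGFRα+ populations.

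Markers of the cell types in the sort also differed between the populations. All 7 fibroblast markers, the gate gene Pdgfra among them (586, 2420 and 12846), were higher in double-positive than in single-positive cells, with summed signals of 1311, 5335 and 73215 in double-negative, single-positive and double-positive cells. Of 8 chondrocyte markers 7 were lower there, with sums of 145468, 179047 and 38940, and of 6 osteoblast markers 5 were lower, with sums of 31246, 98979 and 17999. Over all genes compared between the PDGFRα+ populations, 14.9% were higher and 11.3% lower in double-positive cells. Cartilage markers thus lay far above the floor in both Sca-1− populations of the cells labelled endosteal. In double-positive cells Comp gave 25256 of the chondrocyte sum, Col9a1 5001, Col2a1 4096 and Acan 3317. Col9a2 and Matn1 lay near the floor there, at 129 and 115. The part of this mixture in the differences of the IL-6 family was not tested.

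Some markers of cells that the sort should have removed lay above the floor, although those of its own depletion antigens CD45 and CD31 did not. Of the 18193 genes, 11026, 11042 and 10846 lay above it in double-negative, single-positive and double-positive cells. A count of markers above the floor therefore does not show leftover cells by itself. Ptprc, the gene of CD45, was under the floor on all 3 arrays, as were Pecam1, the gene of CD31, and Cdh5 of endothelial cells and C1qa, C1qb and C1qc of macrophages. Of 8 macrophage markers 4, 4 and 3 lay above the floor in double-negative, single-positive and double-positive cells, with sums of 1638, 2672 and 896. Cd14 gave the largest share of each sum, at 1011, 1960 and 367. Endothelial markers above the floor numbered 1, 2 and 3 of 7, with sums of 439, 583 and 1864, of which Tek and Eng gave 888 and 752 in double-positive cells. Neutrophil precursor markers numbered 2, 8 and 8 of 8, with sums of 631, 3115 and 2748, where Mpo gave 44.9, 712 and 655, and erythroid markers 4, 4 and 1 of 5, with sums of 7283, 2141 and 1275, mostly from Tfrc, the transferrin receptor gene, at 6574, 1752 and 1063. Their part in the results was not tested. The 3′ to 5′ signal ratio of the Actb control probe sets was 2.99, 2.63 and 4.65 in the same order, and that of Gapdh 3.93, 3.54 and 4.73, so both were highest on the array of double-positive cells, Gapdh by a smaller margin. Its part in the lower signals of that array was not tested.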

How the data were processed

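Probe set intensities of 3 arrays were used, 1 per population. Per the submitters' processing notes, the deposited intensity values came from MAS5, the array maker's summary of its probes; for its version, detection calls and filters, no value is given in the sources used here. The values had been scaled to a common level before deposition.

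After 64 control probe sets were set aside, arrays were scaled to a common 2% trimmed mean. Values below a floor of 93.2 were set to that floor and then log2-transformed. A gene under the floor on 1 array has a bound ("at least"), and one under it on both was not compared. Gene symbols came from the platform annotation, and all 10 members matched RefSeq by gene number. Each gene was represented by its brightest probe set, by mean log2 signal. The number of arrays limits the precision, and there was no test. Named pathway genes were, per list, up to 4 with the largest ratios and up to 2 of the brightest within 2-fold in all comparisons; Stat3 and genes given as cell markers are extra. The members, lists and motifs were chosen with earlier results of these data known. Counting was tested on simulated data. Alternatives covered the floor, scaling, probe sets and fold threshold. Python 3.11.15, numpy 2.4.6, pandas 2.3.3 and scipy 1.17.1 were used.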

Additional observations from a re-analysis of the deposited data

How the results depend on the processing

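No paired analysis was possible because each population had 1 array, and for the same reason no replicate could be left out. With the mean over probe sets in place of the brightest, the family members lower in double-positive than in single-positive cells numbered 2 (Il11 and Lifr) in place of 4; Lif and Il6ra left the count, Lif with a second probe set under the floor and Il6ra with one within 2-fold. For members lower in single-positive than in double-negative cells, the count of 2 became 1 (Il6) with the floor at the 67th percentile, with log2(signal + 16) and no floor, or at 3-fold, and 4 at 1.5-fold. At 3-fold, 2 were lower in double-positive than in single-positive cells, and against double-negative cells 0 were higher and 3 lower. With the mean over probe sets, double-positive against double-negative cells gave 2 higher and 4 lower in place of 3 and 6. Clcf1, Osmr and Il6ra left these counts, at log2 ratios of 0.61, −0.77 and −0.52. Of 209 log2 ratios of members under the alternatives, 202 moved by less than the SD between probe sets, 7 by more and 0 called ratios changed sign. The alternative without _x_at and _s_at probe sets, chosen after seeing the data, changed none of the counts by over 1.5 times. Scaling to a common median moved the median log2 ratio of all genes from 0.07 to 0.19 for double-positive over single-positive cells.

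Over all genes, calls higher and lower in single-positive than in double-negative cells were 563 and 657, against 369 and 408 with the mean over probe sets, 365 and 388 with the higher floor, and 1173 and 1269 with no floor. With no floor the lower calls in double-positive cells went from 1340 to 2296 against single-positive cells and from 1443 to 2394 against double-negative cells. At 3-fold the higher and lower calls were 841 and 693, 202 and 190, and 846 and 714 in the order of comparisons in the plot of ratios, and at 1.5-fold 3149 and 2379, 1471 and 1774, and 2941 and 2594.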
